A study of Mus musculus with 40 samples.

Results

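The 44 genes described here carry out DNA replication and cell division, and they were read in whole livers of mice whose hepatocytes lack Nampt. They were taken as a named list of gene symbols, by a rule with no threshold on measured values but drawn up with earlier results of these data known, and all 44 were in the deposited table of 55487 genes and passed the filter on low counts that left 20297 genes for testing. The list holds 15 genes of S phase, when DNA is copied, and 27 genes of G2 phase and mitosis, when chromosomes are separated and the cell divides. Ccnd1 and Mybl2 were put in neither list.

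HNKO mice were female mice of the strain C57BL/6JBomTac with both Nampt alleles floxed and a Cre recombinase driven by the albumin promoter, which acts in hepatocytes, and WT mice were floxed littermates without Cre. All young adult mice were raised on a fortified breeding chow and then given PD, a purified diet, for 3, 6, 12, or 21 days, a time that the sample labels record as an age. Total RNA of whole liver was sequenced in 40 libraries, and the 2 HNKO libraries of day 21 described as failed in quality control (17 and 18) were left out. The groups held 5 WT and 5 HNKO livers on day 3, 4 and 5 on day 6, 5 and 6 on day 12, and 5 and 3 on day 21. Total counts of the 38 libraries ranged from 16151037 to 64181492. Because the tissue was whole liver, more dividing cells and more RNA of these genes per cell cannot be told apart.

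A resting hepatocyte sits outside the cell cycle and can return to it after loss of liver tissue. D-type cyclins bring a cell to the G1 checkpoint, E-type cyclins and E2F factors open S phase, and the MCM helicase is loaded on DNA by Cdc6 and Cdt1 before replication starts. The mitotic genes are expressed later, under the DREAM and MuvB-FOXM1 complexes, and their proteins condense, attach, and separate the chromosomes. A cell that copies its DNA without dividing becomes polyploid, which is common among hepatocytes.

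Averaged over the 4 days, 37 of the 44 genes were higher in HNKO than in WT liver and 0 were lower (edgeR quasi-likelihood test, adjusted p under 0.05), where 19.2% of all genes tested were higher and 17.3% lower. The median log2 fold change of the 44 genes was 1.13, against -0.01 over all genes tested. It ranged from -0.08 for Ccne2, an E-type cyclin, to 2.09 for Melk, a kinase of dividing cells. The 7 genes that did not pass the test were the cyclins Ccnd1, Ccne1, and Ccne2, the replication clamp Pcna, the nucleotide enzymes Rrm2 and Tyms, and the centromeric histone Cenpa. The mitosis genes differed more than the S phase genes, with 26 of 27 called and a median log2 fold change of 1.43, beside 10 of 15 and 0.46.

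**Figure D1:**
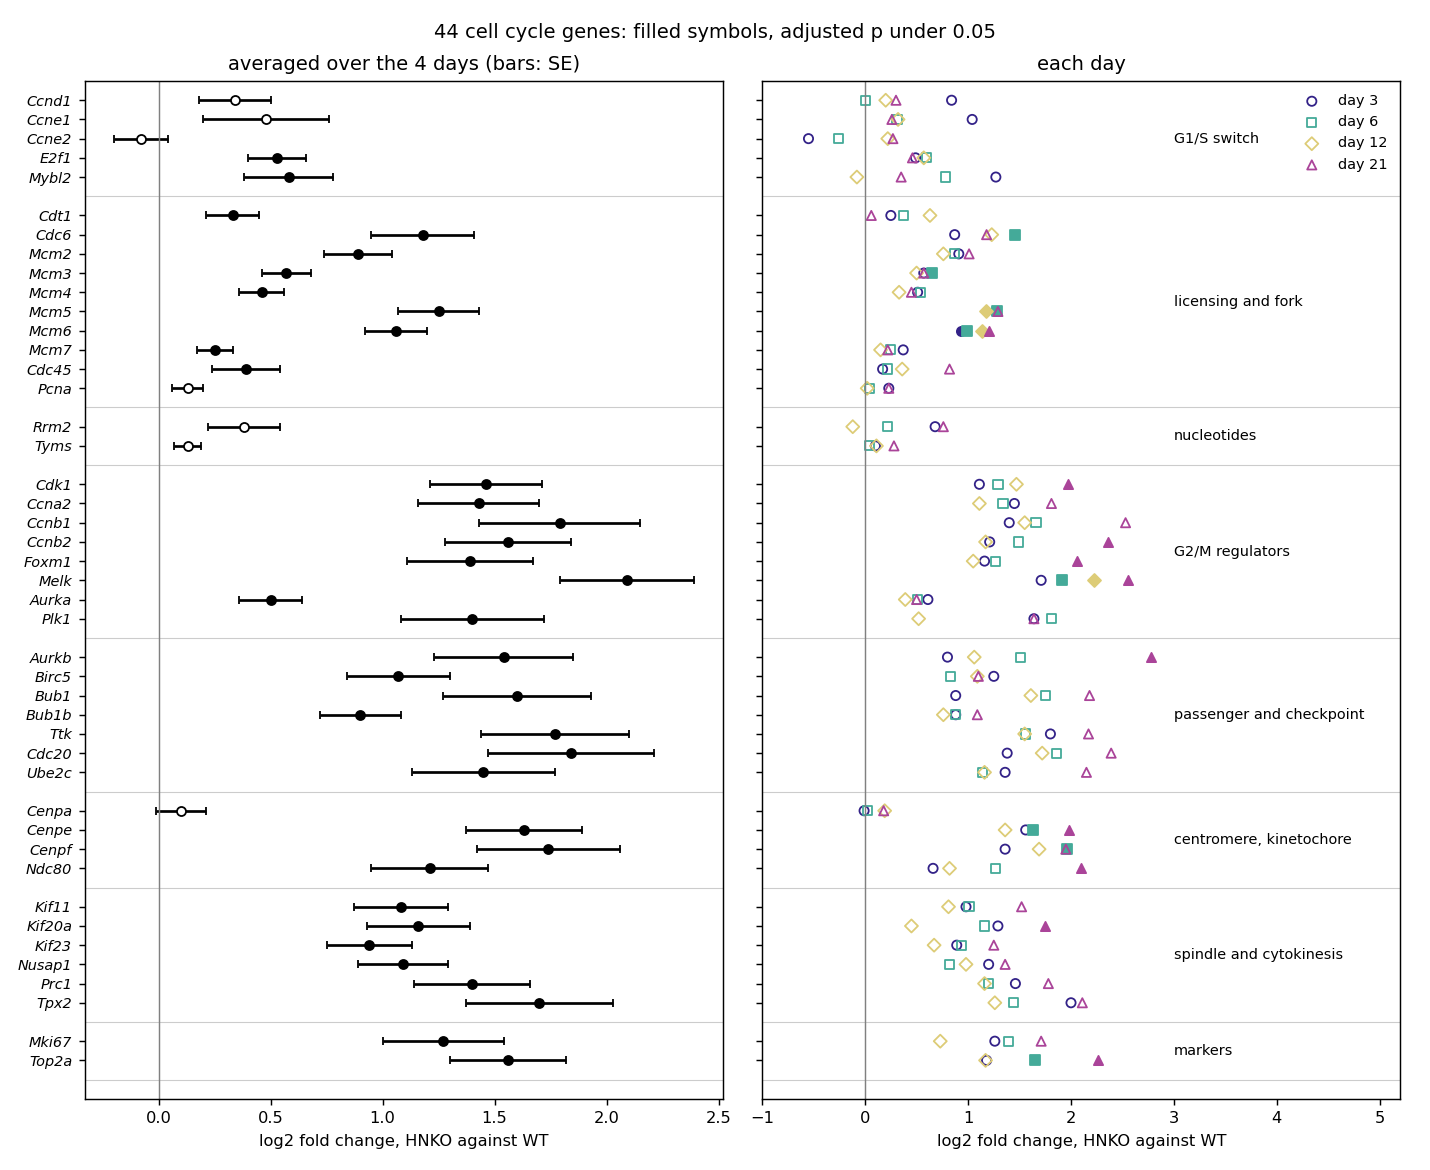
Log2 fold changes of HNKO against WT (x axes) for the 44 genes (y axis), grouped by role, averaged over the 4 days with bars of 1 SE (left) and on each day (right). Filled symbols mark an adjusted p under 0.05, and 37 genes are filled on the left, the lowest open symbol being Ccne2 at -0.08.

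At single days few of the genes passed the test. On day 3, 2 genes were higher in HNKO liver (Mcm5 and Mcm6) and 0 lower, where 2.95% of all genes were higher and 1.71% lower. On day 6, 8 were higher (Cdc6, Mcm3, Mcm5, Mcm6, Melk, Cenpe, Cenpf, and Top2a) and 0 lower, against 8.42% and 4.37% of all genes. On day 12, 3 were higher (Mcm5, Mcm6, and Melk) and 0 lower, against 4.56% and 3.27%. On day 21, 10 were higher (Mcm6, Cdk1, Ccnb2, Foxm1, Melk, Aurkb, Cenpe, Ndc80, Kif20a, and Top2a) and 0 lower, against 2.21% and 0.916%. The count of day 3 lay close to the background share of higher genes, and that of day 21 far above it. Without the adjustment, 33, 29, 22, and 34 of the 44 genes had a p-value under 0.05 on days 3, 6, 12, and 21, where 20.9%, 26.6%, 24.5%, and 18% of all genes did, and 42, 43, 42, and 44 of the 44 had a positive fold change.

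Leaving out single livers moved these daily counts. The shares of all genes called in the same fits were not computed. On day 3 the count was 0 without any of WT libraries 5, 25, or 26 or HNKO libraries 2, 3, or 23, 1 without WT library 1, 15, or 21, 4 without HNKO library 37 or 40, 10 without HNKO library 29, 17 without HNKO library 22, and 18 without HNKO library 4. On day 6 it was 0 without WT library 10 or HNKO library 29, 1 without WT library 8 or 28, 4 without WT library 27, and 5 without WT library 25 or 41 or HNKO library 7. On day 12 it was 1 without WT library 16 or 33 or HNKO library 13, 5 without HNKO library 4, 6 without HNKO library 29, and 7 without HNKO library 32. On day 21 it was 0 without HNKO library 37, 2 without WT library 19, 21, or 41, 6 without WT library 20 or HNKO library 38, 16 without HNKO library 4 or 29, 20 without HNKO library 22, and 22 without HNKO library 40. Each of these fits repeated the filter, the normalization, the estimate of the spread that all groups share, and the adjustment. Through which of these a library of another day enters was not tested. The count averaged over the 4 days moved less and stayed between 34 and 39 with any library left out.

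The HNKO livers of a day differed among themselves in these genes. The mean log2 CPM (counts scaled to library totals adjusted by TMM factors, which even out libraries of different RNA makeup) of the 27 mitosis genes was 2.76, 2.26, and 2.7 in HNKO libraries 2, 3, and 23 of day 3, but 0.16 and -0.05 in libraries 4 and 22 of the same day. The WT livers of day 3 lay between 0.10 and 1.73, so that library 4 stood at the lower end of the WT range and library 22 below it. In each of libraries 2, 3, and 23, 40 of the 44 genes were above every WT liver of the day, where 25.3%, 22.5%, and 26.5% of all genes were. The same held for 1 gene in library 4 and 4 in library 22, where 17.1% and 16.6% of all genes were above. Among the WT livers of that day, library 24 held the highest value for 33 of the 44 genes, a count not made over all genes. The SD over livers was larger in HNKO than in WT for 41 of the 44 genes on day 3, 34 on day 6, 26 on day 12, and 39 on day 21. Of all genes tested, 51.5%, 52.5%, 45.4%, and 49.4% had the larger SD in HNKO livers on these days.

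**Figure D2:**
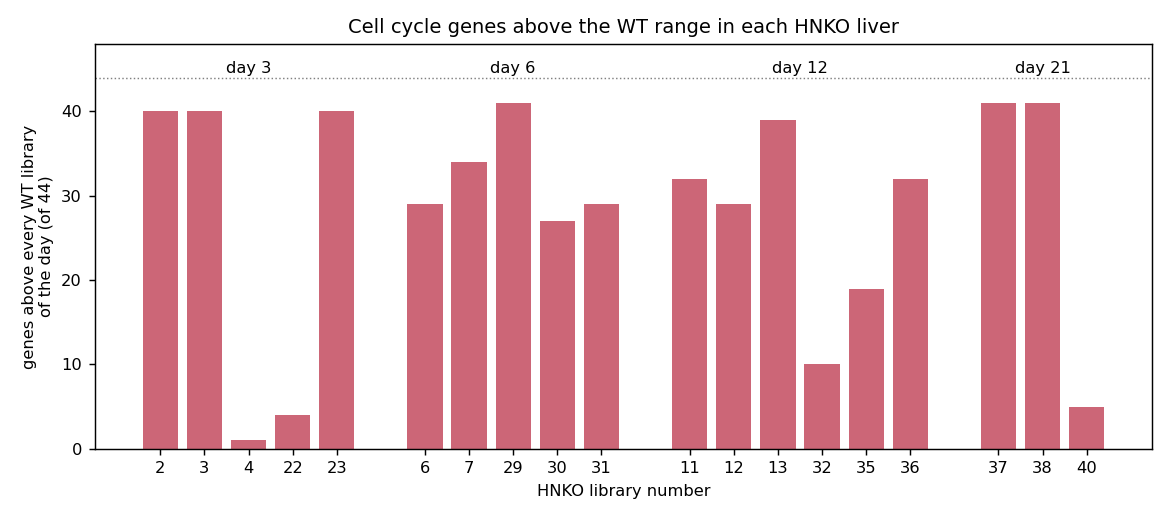
Number of the 44 genes (y axis) above all WT libraries of its day in each HNKO library (x axis, library numbers). Bars reach 40 in libraries 2, 3, and 23 of day 3 and 41 in libraries 29, 37, and 38, but 1, 4, and 5 in libraries 4, 22, and 40. Of all genes, 33%, 27.7%, and 19.7% were above in libraries 29, 37, and 38 and 19.9% in library 40.

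On day 6 all 5 HNKO livers had a higher mean of the mitosis genes than the 4 WT livers, at 0.93 to 2.57 against -0.11 to 0.53. Library 29 held the highest HNKO value for 40 of the 44 genes on that day. This count was not made over all genes, of which 33% lay above every WT liver of the day in library 29. All HNKO livers lay above all WT livers for 20 of the 44 genes on day 6, where 8.08% of all genes did so. The same held for 0 genes on day 3 (2.31% of all genes), 3 on day 12 (2.65%), and 5 on day 21 (7.25%). The 3 genes of day 12 were Cdt1, Mcm6, and Cdk1, and the 5 of day 21 were Mcm2, Mcm5, Mcm6, Aurkb, and Nusap1. On day 21 HNKO libraries 37 and 38 had mitosis means of 2.43 and 1.94 and library 40 of 0.50, within the WT range of -0.42 to 0.90, whose highest value came from WT library 39.

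**Figure D3:**
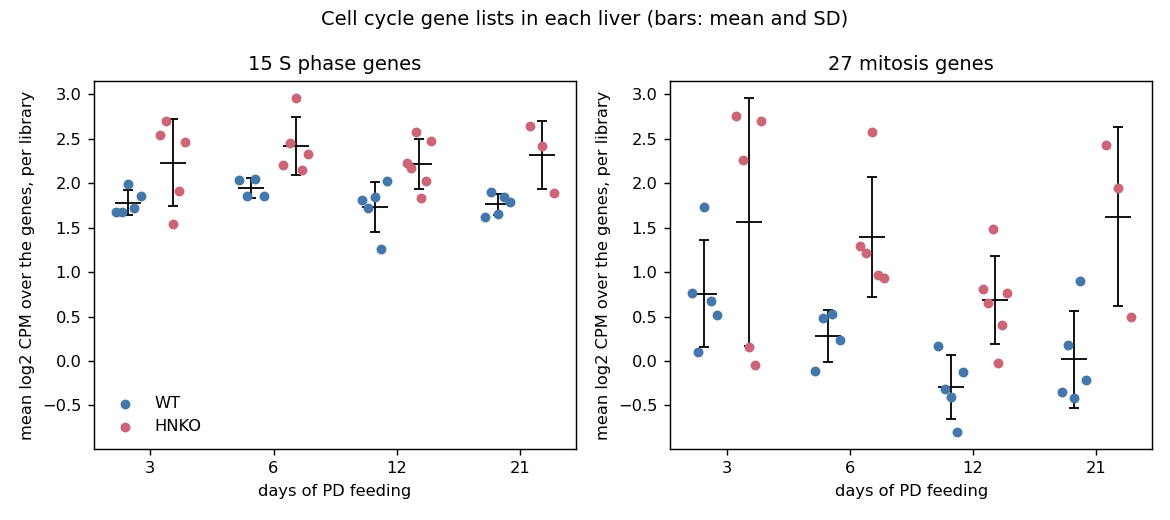
Mean log2 CPM over the 15 S phase genes (left) and the 27 mitosis genes (right) in each library (points), by days of PD feeding (x axis) and genotype (color), with the mean and SD of each group. HNKO and WT points of the mitosis genes do not overlap on day 6, and on day 3 the HNKO points fall at 2.26 to 2.76 and at -0.05 and 0.16.

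The labels number the libraries, and numbers 1 to 21 and 22 to 41 were compared separately, since WT and HNKO livers of most days occur in both, although the labels do not call them batches. Within the series, the HNKO minus WT difference in the mean of the mitosis genes was 1.30 and 0.35 log2 units on day 3, 1.06 and 1.10 on day 6, and 1.17 and 0.85 on day 12. On day 21 it was 1.28 in the later series, and the earlier series had no HNKO library in use. The difference for the S phase genes was smaller in every one of these comparisons, from 0.33 to 0.59. In the later series of day 3 the lists were close, at 0.33 for the S phase and 0.35 for the mitosis genes.

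The counts of each role in the average stand beside the 19.2% of all genes that were higher and 17.3% that were lower. Of the 5 genes of the G1/S switch, 2 were higher in HNKO liver in the average (E2f1 and Mybl2), with a median log2 fold change of 0.48 for the 5, and of 0.84 on day 3, when none was called. Ccnd1 encodes cyclin D1, which mitogens induce, and per kilobase of exon it was the most abundant of the 44 genes, with a median of 17.2 CPM per kilobase in WT and 24.2 in HNKO liver. In order of library number, as in all values that follow, the log2 CPM of Ccnd1 on day 3 was 5.93, 6.34, 5.59, 4.87, and 5.97 in WT and 6.97, 7.13, 5.73, 6.39, and 6.70 in HNKO livers. On day 6 it was 7.10, 6.70, 5.96, and 6.33 in WT and 6.84, 6.99, 6.37, 6.46, and 6.11 in HNKO livers. The groups overlapped on both days, although 4 of the 5 HNKO livers of day 3 were above every WT liver. On day 12 Ccnd1 was 6.94, 6.54, 7.30, 5.44, and 6.67 in WT livers and had a lowest, median, and highest value of 5.67, 6.93, and 7.46 in HNKO livers. On day 21 its log2 CPM was 6.80, 6.96, 7.20, 5.97, and 6.05 in WT and 7.01, 7.33, and 6.50 in HNKO livers. Here, too, the genotypes overlapped, and the log2 fold change was 0.84, 0.00, 0.20, and 0.30 on the 4 days and 0.34 ± 0.16 (SE, adjusted p = 0.107) in the average. About 23.4% of its exon bases overlap the gene LTO1 on the opposite strand, and the strand setting of the counting was not given in the sources used here.

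Ccne1 encodes cyclin E1, the partner of Cdk2 at the start of S phase. On day 3 Ccne1 was at -2.31, -0.81, -0.87, -1.65, and -0.57 in WT and 0.08, 0.35, -2.09, 0.02, and -0.56 in HNKO livers log2 CPM. Its day 6 values were 1.02, 0.64, -0.97, and -0.69 in WT and 0.69, 1.17, 0.67, -0.11, and -0.32 in HNKO livers. HNKO library 4 lay among the WT livers of day 3, and library 23, at -0.56, lay close to the highest WT value. On day 12 Ccne1 was -0.96, -1.43, 0.80, -2.61, and -0.76 in WT livers and had a lowest, median, and highest value of -1.02, -0.59, and 0.41 in HNKO livers. On day 21 Ccne1 was at -0.88, -0.05, -0.43, -1.77, and -0.78 in WT and -0.83, 0.29, and -0.99 in HNKO livers. The groups overlapped on all 4 days, and its log2 fold change was 1.04 on day 3 (adjusted p = 0.296) and 0.48 ± 0.28 (SE, adjusted p = 0.183) in the average. Ccne2, its close relative, had -0.08 ± 0.12 (SE, adjusted p = 0.658), with a range over days from -0.55 to 0.27, so neither E-type cyclin was called. About 17.4% of the exon bases of Ccne2 overlap Ints8 on the opposite strand, a gene with a median of 585.5 counts against 96.5 for Ccne2.

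E2f1, an activator of S phase genes, rose by 0.53 ± 0.13 (SE, adjusted p = 0.00158) in the average and was the member of this role with the smallest p. On day 3 E2f1 was 0.79, 0.77, 0.85, 1.10, and 0.81 in WT and 1.85, 1.66, 0.51, 0.78, and 1.49 in HNKO livers. For day 6 the values were 0.85, 1.05, 1.02, and 0.46 in WT and 1.6, 1.17, 1.55, 1.16, and 1.61 in HNKO livers. The low HNKO libraries 4 and 22 stood below or within the WT livers of day 3, whereas on day 6 the groups did not overlap. On day 12 E2f1 was 0.88, 0.85, 0.59, -0.21, and 1.06 in WT livers and had a lowest, median, and highest value of 0.52, 1.20, and 1.71 in HNKO livers. On day 21 E2f1 was 0.42, 0.80, 0.22, 1.04, and 0.94 in WT and 1.45, 0.98, and 0.94 in HNKO livers, and the groups overlapped on both of these days. Mybl2 encodes B-Myb, which hands MuvB from repression to activation of mitotic genes, and had a mean log2 difference of 0.58 ± 0.20 (SE, adjusted p = 0.0205). On day 3 it had 1.27 ± 0.40 (SE, adjusted p = 0.0585), and on day 12 -0.08. Its median count was 14, and 19.2% of its 51-base stretches occur in other transcripts.

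Of the 10 genes of origin licensing and the replication fork, 9 were higher in HNKO liver over the average of the days, with a median log2 fold change of 0.51. Mcm6, a subunit of the MCM helicase, was the only one of the 44 genes called on all 4 days. On day 3 its log2 CPM was 2.89, 2.90, 3.30, 2.97, and 2.92 in WT and 4.11, 4.58, 2.57, 3.07, and 4.35 in HNKO livers. HNKO libraries 2, 3, and 23 were above every WT liver, library 22 was within the WT livers, and library 4 was below them. On day 6 Mcm6 was 2.95, 2.84, 3.19, and 2.90 in WT and 3.37, 4.14, 4.58, 3.64, and 3.71 in HNKO livers. By day 12 Mcm6 was 2.60, 2.52, 2.66, 2.51, and 2.83 in WT livers and had a lowest, median, and highest value of 3.02, 3.63, and 4.35 in HNKO livers. On day 21 Mcm6 was 2.58, 3.12, 3.13, 3.25, and 2.77 in WT and 4.62, 4.17, and 3.59 in HNKO livers. The genotypes did not overlap on any of these 3 days. The log2 fold change was 0.93, 0.99, 1.14, and 1.20 on the 4 days (adjusted p = 0.0450, 0.0240, 0.00990, and 0.0244) and 1.06 ± 0.14 (SE, adjusted p = 6.97e-07) in the average. Leaving out libraries of the same day kept the call in 2 of 10 cases on day 3, 5 of 9 on day 6, 11 of 11 on day 12, and 5 of 8 on day 21, with log2 fold changes from 0.70 to 1.45. The call of day 3 was also lost with no filter (adjusted p = 0.0528), with all 40 libraries (0.0965), and with the groups of the day alone (0.135), and those of days 6 and 21 with all 40 libraries (0.0567 and 0.0518).

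Mcm5, another helicase subunit, was called on days 3, 6, and 12. On day 3 Mcm5 was 1.61, 1.51, 2.41, 1.30, and 1.52 in WT and 3.31, 3.48, 1.88, 2.15, and 3.27 in HNKO livers. On day 6 Mcm5 was 1.25, 1.75, 1.92, and 2.01 in WT and 2.58, 2.98, 3.79, 2.33, and 2.94 in HNKO livers. The groups overlapped on day 3 through HNKO libraries 4 and 22, which lay under the WT maximum set by library 24, and did not overlap on day 6. On day 12 Mcm5 was 2.08, 1.45, 0.88, 0.44, and 2.03 in WT livers and had a lowest, median, and highest value of 1.69, 2.63, and 3.17 in HNKO livers, with HNKO library 32 alone within the WT livers. On day 21 Mcm5 was 1.67, 1.71, 1.54, 1.47, and 1.57 in WT and 3.54, 2.67, and 1.91 in HNKO livers, without overlap. The log2 fold change was 1.26, 1.28, 1.17, and 1.29 (adjusted p = 0.0309, 0.0195, 0.0280, and 0.0543), and 1.25 ± 0.18 (SE, adjusted p = 1.88e-06) in the average. The daily calls held in 3 of 10, 6 of 9, and 6 of 11 fits without a library of that day. The call of day 3 was lost with all 40 libraries (adjusted p = 0.0519), and those of days 3 and 12 with the groups of the day alone (0.0633 and 0.0659).

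Mcm2 belongs to the same ring. On day 3 Mcm2 was 1.98, 1.99, 1.89, 1.30, and 1.97 in WT and 3.04, 3.25, 2.0, 1.87, and 3.03 in HNKO livers. On day 6 Mcm2 was 1.98, 1.63, 2.40, and 2.14 in WT and 2.15, 3.11, 3.77, 2.39, and 2.48 in HNKO livers. HNKO library 22 on day 3 and libraries 6 and 30 on day 6 were within the WT livers. On day 12 Mcm2 was 2.44, 2.07, 1.71, 1.46, and 2.28 in WT livers and had a lowest, median, and highest value of 2.05, 2.75, and 3.27 in HNKO livers. On day 21 Mcm2 was 2.11, 1.72, 1.48, 2.02, and 1.90 in WT and 3.26, 2.77, and 2.39 in HNKO livers, and only on this day did the groups not overlap. Mcm2 was not called on any single day and was higher in the average (0.89 ± 0.15, SE, adjusted p = 2.12e-05). The other subunits had smaller differences in the average, with 0.57 ± 0.11 (SE, adjusted p = 6.80e-05) for Mcm3, 0.46 ± 0.10 (SE, adjusted p = 0.000290) for Mcm4, and 0.25 ± 0.08 (SE, adjusted p = 0.0133) for Mcm7. On day 6 Mcm3 had 0.65 ± 0.22 (SE, adjusted p = 0.0435). Of the 51-base stretches of Mcm7 exons, 17.7% also occur elsewhere in the annotated transcripts, so its reads could be split.

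Pcna encodes the clamp that holds DNA polymerase on its template, and it was the member of this role that was not called in the average. On day 3 Pcna was 3.62, 3.77, 4.06, 3.95, and 4.16 in WT and 4.14, 4.29, 3.96, 4.03, and 4.32 in HNKO livers. On day 6 Pcna was 4.11, 3.86, 4.49, and 4.23 in WT and 4.06, 3.98, 4.54, 4.17, and 4.36 in HNKO livers. The genotypes overlapped on both days. On day 12 Pcna was 3.73, 3.98, 3.98, 3.99, and 4.40 in WT livers and had a lowest, median, and highest value of 3.80, 3.95, and 4.56 in HNKO livers. On day 21 Pcna was 3.90, 4.19, 3.95, 3.90, and 3.76 in WT and 4.33, 4.20, and 3.98 in HNKO livers, again with overlap. Its log2 fold change was 0.13 ± 0.07 (SE, adjusted p = 0.165) in the average, and 18.9% of its 51-base stretches occur in other transcripts. The loaders and starters of the helicase were higher in the average, with 1.18 ± 0.23 (SE, adjusted p = 0.000118) for Cdc6, 0.33 ± 0.12 (SE, adjusted p = 0.0319) for Cdt1, and 0.39 ± 0.15 (SE, adjusted p = 0.0415) for Cdc45. Cdc6 was also called on day 6 (1.46 ± 0.47, SE, adjusted p = 0.0362). The calls of Cdt1 and Cdc45 were the least stable of these, held in 32 and 21 of 38 fits without a library.

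Neither gene of nucleotide supply was called. Rrm2 encodes the small subunit of ribonucleotide reductase. On day 3 Rrm2 was 2.17, 1.78, 2.76, 2.34, and 2.16 in WT and 3.11, 3.61, 1.97, 2.54, and 3.00 in HNKO livers. On day 6 Rrm2 was 2.47, 1.87, 2.93, and 2.15 in WT and 2.79, 1.84, 3.06, 2.30, and 2.79 in HNKO livers. HNKO libraries 2, 3, and 23 lay above the WT livers of day 3, and on day 6 only library 29 lay above them. On day 12 Rrm2 was 2.37, 3.01, 1.95, 2.33, and 3.58 in WT livers and had a lowest, median, and highest value of 1.89, 2.64, and 3.09 in HNKO livers. On day 21 Rrm2 was 1.86, 1.97, 1.61, 2.38, and 2.53 in WT and 3.18, 3.20, and 1.79 in HNKO livers. On day 12 the groups overlapped widely, and on day 21 library 40 was within the WT livers. The average log2 fold change was 0.38 ± 0.16 (SE, adjusted p = 0.0616), and Tyms, thymidylate synthase, had 0.13 ± 0.06 (SE, adjusted p = 0.0822). In the average, Rrm2 was called in 2 of 8 other settings and 9 of 38 fits without a library. Tyms was called in 1 and 3 of these.

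All 8 regulators of G2 and mitotic entry were higher in HNKO liver in the average, with a median log2 fold change of 1.44. Melk had the largest difference of the 44 genes, though from low counts, with a median of 8.5 and a range from 1 upward, and per kilobase it ranked last of the 44 in WT liver. On day 3 Melk was -1.74, -1.98, 0.03, -2.01, and -1.21 in WT and 0.77, 0.81, -1.32, -0.77, and 0.86 in HNKO livers. On day 6 Melk was -1.41, -1.40, -1.46, and -1.62 in WT and -0.32, -0.34, 1.36, -0.64, and -0.17 in HNKO livers. WT library 24 was far above the other WT livers of day 3, and the groups of day 6 did not overlap. On day 12 Melk was -3.20, -1.95, -2.58, -3.29, and -2.62 in WT livers and had a lowest, median, and highest value of -1.99, -1.31, and -0.21 in HNKO livers. On day 21 Melk was -2.39, -2.41, -2.62, -0.84, and -1.90 in WT and 0.69, 0.57, and -1.08 in HNKO livers. Overlap on these days came from HNKO library 32 and from WT library 39 with HNKO library 40. The log2 fold change was 1.71, 1.91, 2.22, and 2.55 (adjusted p = 0.0572, 0.0304, 0.0320, and 0.0193), and 2.09 ± 0.30 (SE, adjusted p = 1.91e-06) in the average. The calls of days 6, 12, and 21 held in 4 of 9, 5 of 11, and 5 of 8 fits without a library of that day, and without HNKO library 29 the log2 fold change of day 6 was 1.31. With all 40 libraries none of these 3 calls held (adjusted p = 0.127, 0.109, and 0.101).

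**Figure D4:**
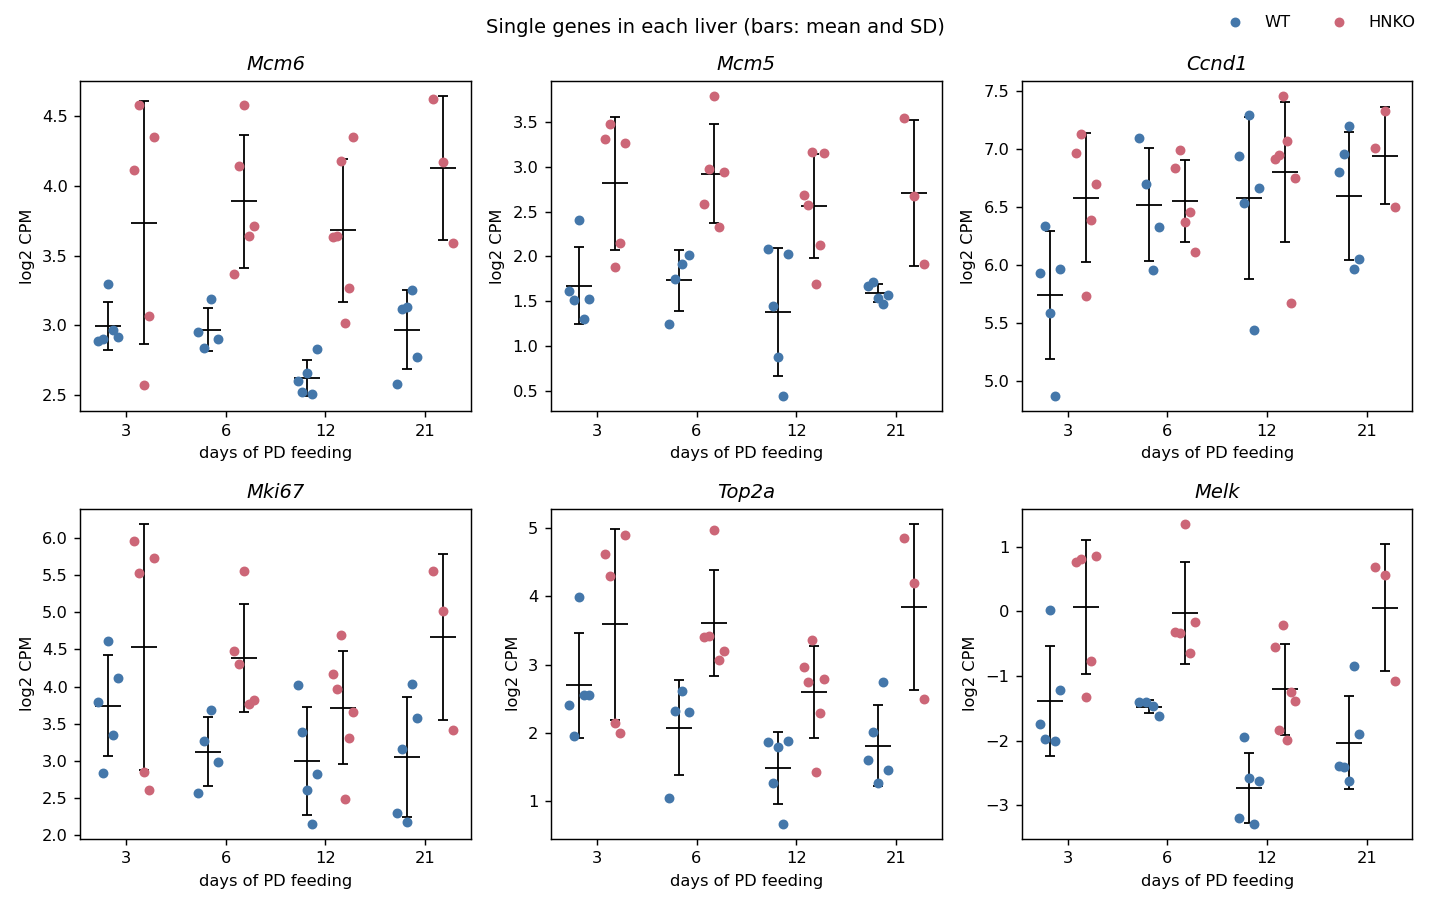
Log2 CPM (y axes) of Mcm6, Mcm5, Ccnd1, Mki67, Top2a, and Melk in each library (points), by days of PD feeding (x axes) and genotype (color), with the mean and SD of each group. Mcm6 does not overlap between genotypes on days 6, 12, and 21, and Ccnd1 overlaps on every day.

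Cdk1 is the kinase that drives entry into mitosis. On day 3 Cdk1 was 0.58, 0.48, 1.84, 0.98, and 0.74 in WT and 2.57, 2.41, 0.33, 0.46, and 2.88 in HNKO livers. On day 6 Cdk1 was 0.31, 0.32, 0.91, and 0.46 in WT and 1.23, 1.26, 2.83, 1.49, and 1.13 in HNKO livers. HNKO libraries 4 and 22 of day 3 lay below every WT liver and the other 3 above, while on day 6 there was no overlap. On day 12 Cdk1 was -0.12, -0.42, -0.63, -1.09, and 0.22 in WT livers and had a lowest, median, and highest value of 0.49, 0.86, and 1.75 in HNKO livers, again without overlap. On day 21 Cdk1 was -0.98, 0.80, -0.09, 1.54, and -0.60 in WT and 2.87, 2.46, and 1.13 in HNKO livers, with library 40 within the WT livers. The log2 fold change was 1.11, 1.29, 1.47, and 1.97, called on day 21 (adjusted p = 0.0315), and 1.46 ± 0.25 (SE, adjusted p = 2.11e-05) in the average. The day 21 call held in 3 of 8 fits without a library of that day, and was lost with all 40 libraries (adjusted p = 0.0672) and with the groups of the day alone (0.0736).

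Ccnb1 encodes cyclin B1, the partner of Cdk1. On day 3 Ccnb1 was -0.84, -0.59, 1.29, -0.07, and -0.07 in WT and 1.96, 1.6, -0.83, -1.20, and 2.55 in HNKO livers. On day 6 Ccnb1 was -1.79, 0.20, -1.28, and -1.62 in WT and 0.10, 0.34, 1.79, -0.11, and -0.27 in HNKO livers. Libraries 2, 3, and 23 were above and library 22 below the WT livers of day 3, and WT library 10 was above 3 of the HNKO livers of day 6. On day 12 Ccnb1 was -1.6, -2.44, -1.93, -1.97, and -1.20 in WT livers and had a lowest, median, and highest value of -1.63, -0.59, and 0.24 in HNKO livers. On day 21 Ccnb1 was -1.89, -0.89, -2.06, 0.29, and -2.40 in WT and 2.07, 1.30, and -1.08 in HNKO livers. HNKO library 32 on day 12 and library 40 on day 21 were within the WT livers. Ccnb1 had 1.79 ± 0.36 (SE, adjusted p = 0.000181) in the average and was called on no single day (day 21 adjusted p = 0.0514). Of its 51-base stretches, 23.2% occur in other transcripts, so its counts are uncertain.

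The remaining regulators were higher in the average. Ccna2, cyclin A2, had a mean log2 difference of 1.43 ± 0.27 (SE, adjusted p = 9.98e-05), and Ccnb2, cyclin B2, of 1.56 ± 0.28 (SE, adjusted p = 3.96e-05). Ccna2 shares 12.5% of its exon bases with Exosc9 on the opposite strand. Foxm1, the transcription factor of G2 genes, had 1.39 ± 0.28 (SE, adjusted p = 0.000218). Plk1, the polo kinase, had 1.40 ± 0.32 (SE, adjusted p = 0.000782). Aurka, the Aurora kinase of the spindle poles, had the smallest difference of this role (0.50 ± 0.14, SE, adjusted p = 0.00541). On day 21 Ccnb2 had 2.36 ± 0.58 (SE, adjusted p = 0.0201) and Foxm1 had 2.06 ± 0.60 (SE, adjusted p = 0.0497), close to the threshold.

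The 7 genes of the chromosomal passenger complex and the spindle checkpoint were all higher in the average, with a median log2 fold change of 1.54. Ttk, the checkpoint kinase also called Mps1, had the smallest p of this role. On day 3 Ttk was -1.02, -1.06, -0.24, -0.82, and -1.08 in WT and 1.13, 1.33, -1.65, -2.16, and 1.91 in HNKO livers. On day 6 Ttk was -1.79, -0.91, -0.97, and -1.45 in WT and 0.27, -0.47, 1.04, -0.30, and -0.53 in HNKO livers. HNKO libraries 4 and 22 were below every WT liver of day 3, and on day 6 the groups did not overlap. On day 12 Ttk was -0.96, -2.17, -3.06, -2.61, and -1.53 in WT livers and had a lowest, median, and highest value of -1.99, -0.85, and 0.26 in HNKO livers. On day 21 Ttk was -1.89, -1.12, -2.26, -0.84, and -1.23 in WT and 1.26, 0.57, and -1.40 in HNKO livers. HNKO libraries 12 and 32 and, on day 21, library 40 were within the WT livers. The average log2 fold change of Ttk was 1.77 ± 0.33 (SE, adjusted p = 6.96e-05), and no single day was called.

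Aurkb, the kinase of the passenger complex, had 1.54 ± 0.31 (SE, adjusted p = 0.000180) in the average and the largest daily difference of the 44 genes on day 21 (2.78 ± 0.65, SE, adjusted p = 0.0167). Birc5, survivin of the same complex, had 1.07 ± 0.23 (SE, adjusted p = 0.000312). The checkpoint proteins Bub1 and Bub1b had 1.6 ± 0.33 (SE, adjusted p = 0.000270) and 0.90 ± 0.18 (SE, adjusted p = 0.000161). Cdc20, which activates the anaphase-promoting complex, had 1.84 ± 0.37 (SE, adjusted p = 0.000173), and Ube2c, its ubiquitin-conjugating enzyme, had 1.45 ± 0.32 (SE, adjusted p = 0.000503). About 22.8% of the exon bases of Ube2c overlap Tnnc2 on the opposite strand, which had a median of 0 counts.

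Of the centromere and kinetochore genes, 3 of 4 were higher in the average. Cenpe, a kinesin that brings chromosomes to the spindle equator, was called on days 6 and 21. On day 3 Cenpe was 1.58, 0.48, 1.96, 0.82, and 0.74 in WT and 3.66, 2.79, 0.74, 0.64, and 3.44 in HNKO livers. On day 6 Cenpe was 0.21, 0.14, 0.94, and 0.81 in WT and 1.87, 1.70, 3.29, 1.27, and 1.51 in HNKO livers. Libraries 2, 3, and 23 were above the WT livers of day 3, libraries 4 and 22 were among them, and the groups of day 6 did not overlap. On day 12 Cenpe was 0.55, -0.35, 0.40, -1.09, and -0.12 in WT livers and had a lowest, median, and highest value of 0.06, 1.16, and 2.08 in HNKO livers. On day 21 Cenpe was -0.03, 0.44, -0.19, 1.07, and 0.45 in WT and 2.85, 2.55, and 0.96 in HNKO livers. HNKO libraries 32 and 40 were within the WT livers of their days. The log2 difference between HNKO and WT was 1.63 ± 0.55 (SE, adjusted p = 0.0449) on day 6, 1.98 ± 0.56 (SE, adjusted p = 0.0420) on day 21, and 1.63 ± 0.26 (SE, adjusted p = 1.05e-05) in the average. The day 6 call held in 3 of 9 and the day 21 call in 2 of 8 fits without a library of that day. Both were lost with all 40 libraries (adjusted p = 0.147 and 0.163), and that of day 6 with no filter (0.0536).

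Cenpf, a large protein of the outer kinetochore, had 1.74 ± 0.32 (SE, adjusted p = 5.67e-05) in the average and 1.96 ± 0.67 (SE, adjusted p = 0.0477) on day 6. Ndc80, which binds the microtubule, had 1.21 ± 0.26 (SE, adjusted p = 0.000413) in the average and 2.10 ± 0.56 (SE, adjusted p = 0.0338) on day 21. Cenpa, the histone that marks the centromere, stood apart with 0.10 ± 0.11 (SE, adjusted p = 0.540). Its group means were 2.91 ± 0.37 (SD, n = 5) in WT and 2.86 ± 0.54 (n = 5) in HNKO liver on day 3, and 2.74 ± 0.18 (n = 5) and 2.92 ± 0.28 (n = 3) on day 21.

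All 6 genes of the spindle and of cytokinesis were higher in the average, with a median log2 fold change of 1.13. Nusap1, which bundles spindle microtubules, had the smallest p of this role. On day 3 Nusap1 was 0.97, 0.85, 1.66, 0.90, and 0.44 in WT and 2.88, 2.53, 1.0, 0.64, and 2.57 in HNKO livers. On day 6 Nusap1 was 0.59, 1.09, 0.94, and 0.85 in WT and 1.80, 1.08, 2.53, 1.23, and 1.07 in HNKO livers. HNKO libraries 4 and 22 on day 3 and libraries 7 and 31 on day 6 were within the WT livers. On day 12 Nusap1 was 1.14, 0.51, -1.30, 0.07, and 0.37 in WT livers and had a lowest, median, and highest value of 0.81, 1.34, and 1.58 in HNKO livers. On day 21 Nusap1 was 0.37, 0.90, 0.02, 0.91, and 0.68 in WT and 2.51, 1.90, and 0.92 in HNKO livers. Only HNKO library 32 of day 12 was within the WT livers, and on day 21 the groups did not overlap, HNKO library 40 lying next to the highest WT livers. The average log2 fold change was 1.09 ± 0.20 (SE, adjusted p = 5.45e-05). Tpx2, which activates Aurora A, had 1.70 ± 0.33 (SE, adjusted p = 9.97e-05), and the midzone protein Prc1, with 11.1% of its exon bases over Rccd1 on the opposite strand, had 1.40 ± 0.26 (SE, adjusted p = 6.44e-05). The mitotic kinesins Kif11, Kif20a, and Kif23 had log2 fold changes of 1.08, 1.16, and 0.94 (adjusted p = 0.000140, 0.000157, and 0.000229). Kif20a was also called on day 21 (1.75 ± 0.49, SE, adjusted p = 0.0424), and 29.3% of its exon bases overlap Cdc23 on the opposite strand.

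Mki67 and Top2a are the usual markers of dividing cells. Mki67 encodes Ki-67, which coats mitotic chromosomes. On day 3 Mki67 was 3.79, 2.84, 4.62, 3.35, and 4.12 in WT and 5.96, 5.53, 2.85, 2.61, and 5.73 in HNKO livers. On day 6 Mki67 was 2.57, 3.26, 3.68, and 2.98 in WT and 4.48, 4.30, 5.56, 3.76, and 3.82 in HNKO livers. HNKO libraries 2, 3, and 23 were above and library 22 below the WT livers of day 3, and the groups of day 6 did not overlap. On day 12 Mki67 was 4.02, 3.39, 2.60, 2.15, and 2.82 in WT livers and had a lowest, median, and highest value of 2.48, 3.82, and 4.69 in HNKO livers. On day 21 Mki67 was 2.30, 3.16, 2.18, 4.03, and 3.58 in WT and 5.56, 5.02, and 3.41 in HNKO livers. On day 12 only HNKO libraries 11 and 13 were above every WT liver, and on day 21 library 40 was within the WT livers. Mki67 was called on no single day (adjusted p = 0.153, 0.109, 0.394, and 0.0965) and was higher in the average (1.27 ± 0.27, SE, adjusted p = 0.000422).

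Top2a, topoisomerase II alpha, untangles copied DNA. On day 3 Top2a was 2.41, 1.96, 3.99, 2.56, and 2.55 in WT and 4.62, 4.29, 2.14, 2.0, and 4.89 in HNKO livers. On day 6 Top2a was 1.05, 2.32, 2.61, and 2.31 in WT and 3.40, 3.42, 4.97, 3.06, and 3.20 in HNKO livers. HNKO libraries 4 and 22 lay among the low WT livers of day 3, and the groups of day 6 did not overlap. On day 12 Top2a was 1.86, 1.26, 1.79, 0.67, and 1.88 in WT livers and had a lowest, median, and highest value of 1.43, 2.76, and 3.36 in HNKO livers. On day 21 Top2a was 1.6, 2.02, 1.26, 2.74, and 1.45 in WT and 4.85, 4.19, and 2.49 in HNKO livers. Only HNKO library 32 of day 12 and library 40 of day 21 were within the WT livers. The log2 difference between HNKO and WT was 1.65 ± 0.55 (SE, adjusted p = 0.0418) on day 6, 2.26 ± 0.56 (SE, adjusted p = 0.0214) on day 21, and 1.56 ± 0.26 (SE, adjusted p = 1.93e-05) in the average. The day 6 call held in 4 of 9 and the day 21 call in 4 of 8 fits without a library of that day, and with all 40 libraries the day 6 call was lost (adjusted p = 0.0835).

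The S phase and mitosis genes differed in the size of their change on each day. The median log2 fold change of the 15 S phase genes was 0.51, 0.37, 0.36, and 0.46 on days 3, 6, 12, and 21, and that of the 27 mitosis genes was 1.25, 1.34, 1.11, and 1.97. No test was made of this difference. In single livers, the mean of the mitosis genes minus that of the S phase genes was between -2.25 and -0.27 in WT livers. HNKO libraries 2 and 23 of day 3 had 0.22 and 0.24, and library 22 of the same day had -1.96. The S phase genes also had less room between livers, with an SD of the list mean from 0.11 to 0.28 in the WT groups, against 0.30 to 0.60 for the mitosis genes.

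The promoter windows of the S phase and mitosis genes held known cell cycle motifs in different shares. RefSeq windows of 300 bases (250 before to 50 after the gene start, build GRCm38.p6) were held for 36 of the 44 genes, and the first of 2 windows was used for 2 of these. The motifs searched, on both strands, were the cell cycle homology region (CHR, TTTGAA or TTCGAA), the CCAAT box (CCAAT), and E2F forms (TTTCCCGC, TTTCGCGC, TTTGCCGC, or TTTGGCGC), some of which can overlap each other. A CHR form occurred in 17 of 22 mitosis windows (77.3%), 3 of 13 S phase windows (23.1%), and 19.2% of all 32851 windows. CCAAT occurred in 18 of 22 (81.8%), 8 of 13 (61.5%), and 37.4%. At least 2 CCAAT boxes were in 54.5% of the mitosis, 38.5% of the S phase, and 11.7% of all windows. An E2F form occurred in 1 of 22 mitosis windows (Cdk1), 6 of 13 S phase windows (Cdt1, Cdc6, Mcm3, Mcm5, Mcm6, and Mcm7), and 2.26% of all windows. These are matches of letters, given as a description.

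The windows below are shown because Mcm6, Mcm5, Melk, Top2a, and Cenpe were called on 2 or more days, Ccnb2 has regularly spaced boxes, and Cdk1 has both kinds of motif. Capitals mark the motif matches, and each runs 5′ to 3′ on the strand of its gene.
Mcm5 (chr8:75109259-75109558, plus strand): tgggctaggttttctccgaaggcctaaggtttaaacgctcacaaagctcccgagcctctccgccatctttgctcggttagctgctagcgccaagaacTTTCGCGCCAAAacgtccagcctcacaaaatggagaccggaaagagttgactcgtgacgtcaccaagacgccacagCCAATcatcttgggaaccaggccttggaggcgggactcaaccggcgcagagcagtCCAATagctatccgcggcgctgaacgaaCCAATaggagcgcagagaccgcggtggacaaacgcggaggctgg
Mcm6 (chr1:128359656-128359955, minus strand): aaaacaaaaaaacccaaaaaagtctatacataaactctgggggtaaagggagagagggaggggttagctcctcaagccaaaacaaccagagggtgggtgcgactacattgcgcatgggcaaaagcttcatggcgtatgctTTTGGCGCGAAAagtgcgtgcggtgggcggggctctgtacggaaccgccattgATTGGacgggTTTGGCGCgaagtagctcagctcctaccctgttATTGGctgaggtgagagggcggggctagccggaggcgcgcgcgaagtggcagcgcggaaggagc
Cdk1 (chr10:69352863-69353162, minus strand): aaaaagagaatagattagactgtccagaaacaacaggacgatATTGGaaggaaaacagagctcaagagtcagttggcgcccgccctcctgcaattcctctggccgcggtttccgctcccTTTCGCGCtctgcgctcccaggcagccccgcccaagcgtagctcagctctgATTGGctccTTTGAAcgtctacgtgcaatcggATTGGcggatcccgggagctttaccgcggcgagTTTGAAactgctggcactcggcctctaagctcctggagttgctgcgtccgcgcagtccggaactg
Ccnb2 (chr9:70421505-70421804, minus strand): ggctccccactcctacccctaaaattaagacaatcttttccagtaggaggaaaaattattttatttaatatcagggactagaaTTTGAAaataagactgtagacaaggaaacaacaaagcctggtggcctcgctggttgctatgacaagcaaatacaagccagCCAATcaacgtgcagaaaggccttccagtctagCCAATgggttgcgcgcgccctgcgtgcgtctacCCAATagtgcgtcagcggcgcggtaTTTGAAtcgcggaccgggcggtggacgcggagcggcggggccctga
Melk (chr4:44300667-44300966, plus strand): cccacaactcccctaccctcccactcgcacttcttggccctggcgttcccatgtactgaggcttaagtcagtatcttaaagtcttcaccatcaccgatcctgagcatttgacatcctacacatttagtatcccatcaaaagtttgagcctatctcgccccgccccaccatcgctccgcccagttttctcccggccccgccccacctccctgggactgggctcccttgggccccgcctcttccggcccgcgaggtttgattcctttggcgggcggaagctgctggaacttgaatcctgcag
Top2a (chr11:99024140-99024439, minus strand): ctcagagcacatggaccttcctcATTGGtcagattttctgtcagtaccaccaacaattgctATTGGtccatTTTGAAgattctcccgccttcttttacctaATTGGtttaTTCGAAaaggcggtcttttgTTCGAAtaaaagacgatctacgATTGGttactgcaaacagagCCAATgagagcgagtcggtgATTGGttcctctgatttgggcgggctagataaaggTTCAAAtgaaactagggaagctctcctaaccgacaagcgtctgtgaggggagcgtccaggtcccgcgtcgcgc
Cenpe (chr3:135212313-135212612, plus strand): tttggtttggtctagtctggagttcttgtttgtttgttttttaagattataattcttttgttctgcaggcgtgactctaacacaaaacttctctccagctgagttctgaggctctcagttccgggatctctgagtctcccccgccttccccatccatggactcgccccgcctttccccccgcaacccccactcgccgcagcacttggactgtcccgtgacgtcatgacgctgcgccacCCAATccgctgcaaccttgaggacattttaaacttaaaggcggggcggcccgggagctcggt
Mcm5 and Mcm6 each hold E2F forms that overlap on opposite strands, together with CCAAT boxes and no CHR form. In Ccnb2 the 3 CCAAT boxes start 33 bases apart, and a CHR form follows the last. Top2a holds 6 CCAAT boxes and 4 CHR matches, and Cenpe 1 CCAAT box and no CHR form. The window of Melk, the gene with the largest difference, holds none of these letters in this search, nor, among the mitosis genes, do those of Birc5 and Nusap1.

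The other genes of the pathway were read in 6 lists, whose counts stand beside the 19.2% of all genes higher and 17.3% lower in the average. Of 6 tested CDK inhibitors (Cdkn2a did not pass the filter), 3 were higher and 2 lower in the average. Cdkn1a encodes p21, which stops CDKs under stress and DNA damage. On day 3 Cdkn1a was 1.66, 1.34, 1.15, 1.01, and 1.38 in WT and 4.10, 2.92, 1.0, 2.30, and 3.13 in HNKO livers. On day 6 Cdkn1a was -0.38, -0.16, 2.50, and 1.40 in WT and 1.44, 1.26, 4.38, 3.00, and 1.66 in HNKO livers. HNKO library 4 was the lowest liver of day 3 and the other 4 HNKO livers were above every WT liver, whereas on day 6 only libraries 29 and 30 were. On day 12 Cdkn1a was 2.34, 2.36, -0.74, 1.68, and 3.54 in WT livers and had a lowest, median, and highest value of 1.18, 2.18, and 3.31 in HNKO livers. On day 21 Cdkn1a was 1.11, 0.56, 0.70, 1.16, and 1.16 in WT and 3.55, 1.58, and 1.32 in HNKO livers. The groups overlapped on day 12 and did not on day 21. Its log2 fold change was 1.72, 1.61, -0.02, and 1.61 on the 4 days, not called on any, and 1.23 ± 0.33 (SE, adjusted p = 0.00317) in the average. On day 6 it was 0.72 without HNKO library 29 and 2.42 without WT library 27, when it was called (adjusted p = 0.0424). On day 12 it was 0.54 without WT library 34, and on day 21 0.53 without HNKO library 37. Cdkn2b (0.79) and Cdkn2c (0.14) were also higher, and Cdkn1b (-0.15) and Cdkn1c (-0.41) were lower.

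Of 12 pocket proteins, E2F factors, and MuvB subunits, 3 were higher (E2f2, 0.96, Rbl1, 0.53, and E2f7, 0.54) and 2 lower (Rbl2, -0.25, and Lin54, -0.18). Rbl2, or p130, is the pocket protein of resting cells. Of 10 other cyclins, CDKs, and their phosphatases and inhibitory kinases, 6 were higher and 0 lower. Pkmyt1 (1.35, adjusted p = 2.46e-05) and Ccnd2 (0.26) had the smallest p, and the phosphatase Cdc25c (2.0) had the largest log2 fold change. Of 31 genes of the replication machinery, 13 were higher and 2 lower. Gins2, a subunit of the fork helicase with Mcm2 to Mcm7 and Cdc45, was called on days 3, 12, and 21 and had 1.42 ± 0.21 (SE) in the average, and Pole (0.64) and Cdc7 (0.99) were also higher. The 2 lower genes, named after their values were seen, were Mcm10 (-0.60) and Tk1 (-0.44). Of 22 condensin and kinetochore genes, 14 were higher and 0 lower, among them Nuf2 (1.86), Incenp (0.77), and Ncapg2 (0.82). Of 22 genes of the anaphase-promoting complex and mitotic exit, 8 were higher and 2 lower. Here Espl1 (separase, 1.50), Racgap1 (1.47), and Anln (1.07) were higher, and Pttg1 (securin, -0.20) was lower. The median log2 fold change of these lists lay between -0.01 and 0.19, except 0.53 for the condensin and kinetochore genes, and was below the 1.43 of the mitosis genes in each list, although single genes such as Cdc25c, Nuf2, Espl1, and Racgap1 were above it. Whether the lists differ was not tested.

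No change of the genotype difference over time was called. The genotype by day interaction was called for 0 of the 44 genes and 0% of all genes (edgeR quasi-likelihood test), and at an unadjusted p under 0.05 for 0 of the 44 and 966 of all genes (4.76%), and DESeq2 also called 0 of the 44. Within WT liver, a day effect was called for 0 of the 44 genes, where 5.84% of all genes were called. At an unadjusted p under 0.05 there were 6 of the 44 and 21.2% of all genes, and DESeq2 called 1. Within HNKO liver it was called for 1 gene, Kif20a (adjusted p = 0.0392), where 7.90% of all genes were called, and 15 had an unadjusted p under 0.05, as had 22.9% of all genes. The mean log2 CPM of Kif20a in HNKO liver was 2.27 ± 1.51 (SD, n = 5), 1.67 ± 0.70 (n = 5), 1.07 ± 0.44 (n = 6), and 2.20 ± 0.92 (n = 3) on days 3, 6, 12, and 21. This call was lost without HNKO library 2, 3, 11, 12, 23, 30, 32, 35, 36, or 38, and 2 to 4 genes were called without HNKO library 4, 22, 29, or 40.

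The labels and the makeup of the tissue were checked with marker genes. Nampt, the targeted gene, had a mean log2 difference of -0.83 ± 0.12 (SE, adjusted p = 2.61e-06) in the average, and its values on day 3 were 6.15, 6.57, 6.32, 6.06, and 5.84 in WT and 5.31, 5.38, 5.21, 5.14, and 5.35 in HNKO livers, without overlap. It was called lower on days 3, 6, and 12 and not on day 21, when it had -0.69 ± 0.27 (SE, adjusted p = 0.161) and was 6.26, 6.52, 6.65, 6.44, and 6.43 in WT and 5.55, 6.03, and 5.73 in HNKO livers, without overlap. On day 6 HNKO library 7, at 6.36, was above WT libraries 27 and 28, at 6.00 and 5.99. The summed CPM of 8 hepatocyte markers was 90452 to 150760 in WT and 57673 to 121390 in HNKO livers. The sum of the 9 tested cholangiocyte and progenitor markers was 43.3 to 66.3 in WT and 128 to 808 in HNKO livers, without overlap, and that of 8 monocyte and macrophage markers was 100 to 228 and 149 to 582. The 7 stellate cell and myofibroblast markers summed to 315 to 465 in WT and 275 to 1057 in HNKO livers, and in the average 5 of the 7 were higher, Col1a1 with 2.74, and 1 lower. Neutrophil markers summed to 0.478 to 2.56 and 0.718 to 28.3, and endothelial markers to 463 to 601 and 462 to 578. Kupffer cell markers summed to 191 to 515 in WT and 238 to 640 in HNKO livers. The T and NK cell sum was 2.25 to 7.85 and 2.98 to 6.48, and the B and plasma cell sum 3.82 to 60.1 and 5.62 to 13.4. Erythroid markers summed to 29.8 to 238 in WT livers and reached 522 in HNKO livers. No marker was at 0 in all libraries, and markers such as Cftr, Mzb1, Ly6g, Cxcr2, and Retnlg were at 0 in some.

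Several of these sums moved with the cell cycle genes on some days. On day 3 the cholangiocyte and progenitor sum was 455, 333, and 453 in HNKO libraries 2, 3, and 23 and 159 and 128 in libraries 4 and 22. On day 6 it was 808 in library 29, the library with the highest cell cycle genes, and 187 to 328 in the others. On day 21 it was 535 in library 37, but 153 in library 38, whose cell cycle genes were high, and 253 in library 40, whose were low. On day 12 it was 216 in library 13, with the highest cell cycle genes, and 253 in library 12. The stellate cell and myofibroblast sum was 845 and 982 in libraries 2 and 23 of day 3, and 462, 395, and 275 in libraries 3, 4, and 22. It was also the highest of its day in libraries 29, 13, and 37, at 1057, 634, and 945, but on day 21 it was 399 in library 38 and 635 in library 40. The monocyte and macrophage sum was 268, 262, and 367 in libraries 2, 3, and 23 of day 3 and 192 and 184 in libraries 4 and 22, and it was the highest of its day in library 29, at 582, and in library 37, at 324. On day 21 it was 182 in library 38 and 206 in library 40. The neutrophil sum was 2.80, 5.80, and 4.52 in libraries 2, 3, and 23, 1.43 and 2.19 in libraries 4 and 22, and 28.3 in library 29. It was 20.9 in library 30, which had the lowest mean of the 44 genes among the HNKO livers of day 6. Libraries 6, 7, and 31 of that day had 7.18, 11.9, and 7.77. On day 12 both sums were highest in library 11, at 255 and 6.37, against 210 and 2.51 in library 13. The hepatocyte sum was the lowest of its day in libraries 23, 29, 13, and 37, at 67779, 57673, 89720, and 76524. On day 3 it was 90648 and 92235 in libraries 2 and 3 and 121390 and 87941 in libraries 4 and 22, and on day 21 it was 108880 in library 38 and 86634 in library 40. The erythroid sum was 129, 133, and 159 in libraries 2, 3, and 23 of day 3 and 62 and 50 in libraries 4 and 22. Among WT livers of days 3, 6, and 12 it was highest in libraries 24, 27, and 14, those with the highest mitosis means. On day 21 the highest WT value was in library 41. The highest HNKO values of days 6, 12, and 21 were 217, 522, and 79.7 in libraries 6, 35, and 38. The T and NK cell sum was highest in HNKO libraries 2, 29, 12, and 37 of days 3, 6, 12, and 21. The part of these cells in the differences of the 44 genes was not tested.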

How the data were processed

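Whole-liver RNA of HNKO and WT mice was depleted of rRNA, made into stranded libraries, and sequenced as 51-bp read pairs. For alignment to GRCm38 the authors ran STAR (2.7.2b) with the GENCODE M22 annotation, and they counted fragments per gene with featureCounts (1.6.4), with edgeR (3.26.0) for their own tests. They deposited raw counts, without normalization, in a table with 0 columns of unmapped samples, and samples were grouped by the labels. Each library was from 1 mouse.

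Here, genes were kept by edgeR's filter (minimum count 10, minimum total 15, minimum proportion 0.7), normalized by TMM, and modelled by group over 38 libraries (edgeR 4.0.16, limma 3.58.1, R 4.3.3, quasi-likelihood test, legacy computation, Benjamini-Hochberg adjustment over 20297 genes at 0.05). HNKO was compared with WT on each day, averaged over the days, and by the interaction with day. Log2 CPM used a prior count of 2. Gene positions and shared 51-base stretches came from GENCODE M21 of the same build and promoter windows from RefSeq. DESeq2 (1.42.0) and other settings were alternatives. The fits were tested on simulated data. Of 74 pairs of libraries within groups, none agreed within sampling noise (lowest chi-square per gene 12.5). Total counts ranged from 16151037 to 64181492, so genes such as Melk rest on few counts.

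The members and all gene lists were chosen with earlier results of these data known. Values in every library (the lowest, median, and highest where a group has over 5) are given for 9 chosen genes, for members called on 2 or more days, and for the member of each role with the smallest p in the average. Other members are given where called on 1 day or in the average, and at most 5 genes of each other list, by p.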

Additional observations from a re-analysis of the deposited data

Results flagged for a closer look

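Of 119 groups of livers examined over the 17 genes whose values are given by group, 8 held a liver far from the others of its group, and about 1 in 20 groups would do so by chance. HNKO library 29 of day 6 was high for 3 of these genes, with a log2 CPM of 4.97 for Top2a (the other livers 3.06 to 3.42), 2.83 for Cdk1 (1.13 to 1.49), and 1.36 for Melk (-0.64 to -0.17). WT library 24 of day 3 was high for Mcm5, at 2.41 (1.30 to 1.61), and for Mcm6, at 3.30 (2.89 to 2.97). WT library 25 of day 3 was low for Mcm2, at 1.30 (1.89 to 1.99), and high for E2f1, at 1.10 (0.77 to 0.85). HNKO library 36 of day 12 was high for Pcna, at 4.56 (3.80 to 4.03).

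The libraries left out after quality control differed in the mitosis genes. The mean log2 CPM of the 27 mitosis genes was 1.27 in HNKO library 18, above the WT livers of day 21 (-0.41 to 0.92 in the same scaling), and -1.85 in HNKO library 17, where 16 of the 27 genes had 0 counts. For the 15 S phase genes the mean was 1.74 in library 18, within the WT livers (1.62 to 1.90), and 0.60 in library 17, below them.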

How the results depend on the processing

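The count of genes called in the average of the 4 days was 37 and stayed within 33 to 38 in every alternative but the stricter filter (at least 10 counts in every library), which called 23 of the 27 genes it left in the test. Without day 21, an alternative chosen after seeing the data, it was 36. The shares of all genes called under the alternatives or without single libraries were not computed. The daily counts moved more. With DESeq2 they were 12, 8, and 20 on days 3, 12, and 21, and DESeq2 called a day effect for 1 gene within WT and 3 within HNKO. With no filter they were 1 on day 3 and 4 on day 6, with all 40 libraries 0 and 1, with the 2 groups of a day alone 0 on day 3 and 8 on day 12, and with the edgeR 4 computation 4 on day 3. The stricter filter called 5 on day 21. Leaving out each library in turn gave 0 to 18, 0 to 11, 1 to 7, and 0 to 22 genes on days 3, 6, 12, and 21, 34 to 39 in the average, 0 for the interaction and within WT, and 0 to 4 within HNKO. The median of the mitosis genes minus that of the S phase genes in the average (0.97) ranged from 0.76 to 1.0 over the other settings and from 0.88 to 1.09 without single libraries. No called fold change of the genes whose values are given by group changed sign. Except where fewer genes or libraries entered, the cause was not tested. The labels used here name no litters or pairs of mice, so no paired analysis was made. Depth limits the genes with few counts, such as Melk, Ttk, and Bub1.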
